A study of Homo sapiens with 6 samples.

Results

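The genes of mitochondrial oxidative phosphorylation were taken by symbol, as every gene whose symbol begins NDUF, UQCR, ATP5, SDH followed by A to D, or COX followed by a digit and that had a probe set with that symbol alone. This gave 41 genes of 14884 named genes. They were followed over 6 Affymetrix arrays of total RNA from Caco-2 cells, a line established from a human colon carcinoma, 2 arrays in each of 3 groups. Cells carried a lentiviral short hairpin RNA, either FAM46A-shRNA#2 or FAM46A-shRNA#4, a pair of different hairpins against FAM46A (TENT5A), or a scramble hairpin, and all were sampled 17 days after infection. The study asked which genes are affected by FAM46A depletion; the level of FAM46A itself was not analysed here. All groups share the line and the infection. The labels give the 2 arrays of a group as biological replicates but not how the cultures differed, so the p-values cover the spread among these 6 samples and nothing wider.

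The respiratory chain passes electrons from NADH (complex I) and succinate (complex II, succinate dehydrogenase) through ubiquinone, complex III and cytochrome c to oxygen at complex IV, cytochrome c oxidase. Complexes I, III and IV pump protons across the inner mitochondrial membrane, and ATP synthase lets them flow back to make ATP. Most subunits are encoded in the nucleus and join a few encoded by mitochondrial DNA, with the help of assembly factors that insert flavin, iron-sulfur clusters, heme and copper or hold partly built modules. In enterocytes, of which differentiated Caco-2 cells are a model, this machinery supplies the ATP for nutrient transport.

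The label of the group covers more than was measured. Of 112 protein-coding genes in the RefSeq table that fit the symbol rule, 37 had a named probe set, and the other members were 4 non-coding genes. They were 5 subunits of complex III, 16 of complex IV, 3 proteins of ATP synthase, 13 assembly factors and the 4 non-coding genes. No subunit of complex I or II was among them, only 2 assembly factors of complex I and 4 of complex II, and 0 of 13 mitochondrially encoded subunits was measured. The remaining genes were not analysed here, so complexes I and II are described through their assembly factors alone.

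Values are log2 signals relative to each probe set's median over the 6 arrays, so a value of 0 is the middle of the 6 arrays and levels cannot be compared between genes. The replicate arrays of a group differed over the 41 genes with a standard deviation of 0.11 in shRNA#2, 0.14 in shRNA#4 and 0.12 in scramble cells. A gene was called changed at a limma p-value under 0.05 after Benjamini-Hochberg adjustment over all 14884 genes. Of the epithelial markers measured, 4 of 8 fell with the mean of both hairpins and 0 rose (50%, beside 25.4% of all genes, 10.6% lower and 14.8% higher), and the median of the list lay between -0.04 and -0.02 in the 4 hairpin arrays, against 0.09 and 0.10 in the scramble arrays. KRT20 fell by 1.19, VIL1 by 0.61, CDX2 by 0.26 and EPCAM by 0.15 on the log2 scale, of which the calls of CDX2 and EPCAM were each lost in 4 or more of the 6 fits that left out 1 array. The KRT20 change was -0.78 without scramble replicate 1 and -1.59 without scramble replicate 2. The epithelial keratin KRT18 had 0.30 for the mean (adjusted p = 0.0962) and rose by 0.49 with shRNA#4 (adjusted p = 0.0315). For fibroblast markers, of which 3 of 7 were measured, the list median lay between -0.01 and 0.05 in hairpin arrays, against -0.18 and -0.05 in scramble arrays, and VIM rose by 0.28 (adjusted p = 0.00843, and 0.0572 without scramble replicate 1), or by 0.66 (adjusted p = 0.00519) when its probe set of largest standard deviation stood for the gene. For immune markers, 2 of 5 measured, CD68 fell by 2.01 (adjusted p = 0.000828) and CD14 had 0.34 (adjusted p = 0.0519). For endothelial markers, 3 of 4 measured, 0 passed and changes ran from -0.04 to 0.00. Whether any defining marker was absent could not be read from values without a level, and the part of these markers in the results that follow was not tested. RNA was taken from whole cultures, in which fewer cells of a type and less RNA per cell cannot be told apart.

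Of the 9 members that passed when both hairpins were averaged, 6 had exactly 1 promoter in the RefSeq table (GRCh38.p14), and their promoters are shown. COX11 and UQCRHL, which also passed, had no promoter in the table, and NDUFAF8 had several. Each window of 300 bases runs from 250 bases before the gene's start to 50 after it, 5′ to 3′ on the gene's strand. Capitals mark matches to 3 motifs known from promoters of respiratory genes, searched on both strands and counted also where they overlap: the NRF1 motif, CCGGAAG for ETS factors such as GABP, and AAGATGGC for YY1. COX6B1 (chr19:35648073-35648372, plus strand) and COX8A (chr11:63974370-63974669, plus strand) encode subunits of complex IV. COX14 (chr12:50111986-50112285, plus strand) and COX19 (chr7:975500-975799, minus strand) encode assembly factors of complex IV, and SDHAF2 (chr11:61429874-61430173, plus strand) and SDHAF3 (chr7:97117448-97117747, plus strand) those of complex II.
COX6B1: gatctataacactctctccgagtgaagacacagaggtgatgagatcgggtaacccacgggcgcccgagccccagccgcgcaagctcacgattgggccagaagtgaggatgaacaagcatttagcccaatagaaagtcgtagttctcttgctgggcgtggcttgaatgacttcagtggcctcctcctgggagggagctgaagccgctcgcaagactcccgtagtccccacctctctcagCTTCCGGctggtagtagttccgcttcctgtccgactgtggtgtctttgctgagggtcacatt
COX8A: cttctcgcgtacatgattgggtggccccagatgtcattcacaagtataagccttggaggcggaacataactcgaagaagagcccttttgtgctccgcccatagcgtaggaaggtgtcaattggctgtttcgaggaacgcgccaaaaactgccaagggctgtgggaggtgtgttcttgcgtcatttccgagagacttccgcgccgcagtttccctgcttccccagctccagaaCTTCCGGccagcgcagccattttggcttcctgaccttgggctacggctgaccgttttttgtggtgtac
COX14: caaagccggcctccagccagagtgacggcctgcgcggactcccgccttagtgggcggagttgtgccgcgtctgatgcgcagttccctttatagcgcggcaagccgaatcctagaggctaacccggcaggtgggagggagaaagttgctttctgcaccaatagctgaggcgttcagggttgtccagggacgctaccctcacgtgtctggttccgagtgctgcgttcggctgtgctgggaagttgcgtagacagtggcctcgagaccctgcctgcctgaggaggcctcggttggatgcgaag
COX19: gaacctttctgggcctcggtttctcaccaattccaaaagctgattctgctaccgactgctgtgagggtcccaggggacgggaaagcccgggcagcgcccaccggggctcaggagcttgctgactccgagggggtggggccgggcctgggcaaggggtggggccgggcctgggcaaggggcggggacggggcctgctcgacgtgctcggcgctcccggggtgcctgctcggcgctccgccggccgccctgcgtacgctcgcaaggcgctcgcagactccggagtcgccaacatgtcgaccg
SDHAF2: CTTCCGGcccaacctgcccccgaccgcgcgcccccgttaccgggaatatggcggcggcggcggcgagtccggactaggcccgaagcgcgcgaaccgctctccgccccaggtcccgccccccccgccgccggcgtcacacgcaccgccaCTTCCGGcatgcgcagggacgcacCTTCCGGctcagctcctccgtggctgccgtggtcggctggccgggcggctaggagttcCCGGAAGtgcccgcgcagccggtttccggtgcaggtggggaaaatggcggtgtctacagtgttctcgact
SDHAF3: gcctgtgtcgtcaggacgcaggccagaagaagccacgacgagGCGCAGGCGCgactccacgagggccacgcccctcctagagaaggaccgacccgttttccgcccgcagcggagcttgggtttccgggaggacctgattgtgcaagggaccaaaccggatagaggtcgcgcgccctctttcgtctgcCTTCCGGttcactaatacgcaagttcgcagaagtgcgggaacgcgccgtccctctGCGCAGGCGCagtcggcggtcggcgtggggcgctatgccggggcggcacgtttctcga

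The SDHAF2 window held 4 matches to the ETS motif, the SDHAF3 window 2 matches to the NRF1 motif and 1 to the ETS motif, and the COX6B1 and COX8A windows 1 match each to the ETS motif. The COX14 and COX19 windows held no match to the 3 motifs. Of 34 members with a promoter in the table, 13 (38.2%) held the ETS motif in any of their promoters, 7 (20.6%) the NRF1 motif and 4 (11.8%) the YY1 motif. Among the 10749 measured genes with a promoter the shares were 17.1%, 9.89% and 4.86%, and among all 27305 genes with a RefSeq promoter they were 12.2%, 6.98% and 3.52%. At least 1 of the 3 motifs stood in 19 members (55.9%), against 27.8% of measured genes. By class, it stood in 7 of 12 assembly factors (58.3%) and 6 of 13 complex IV subunits (46.2%). These are counts of letters in a window, with no test.

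With the mean of both hairpins against scramble, 4 of the 41 genes rose and 5 fell. The risers were UQCRHL of complex III and the assembly factors NDUFAF8, SDHAF2 and SDHAF3. Those that fell were COX8A and COX6B1 of complex IV and the complex IV assembly factors COX19, COX14 and COX11. These 9 are 22% of the members, beside 25.4% of all named genes (14.8% higher, 10.6% lower), and the median change was 0.04 on the log2 scale, beside 0.0028 for all genes. The members as a whole therefore passed at about the rate of any gene. Without scramble replicate 2 the count was 3, and without any other single array it was 6 to 8. All 4 hairpin arrays lay on a single side of both scramble arrays for 17 of 41 members (41.5%, 10 higher and 7 lower), beside 36.2% of all genes.

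**Figure D1:**
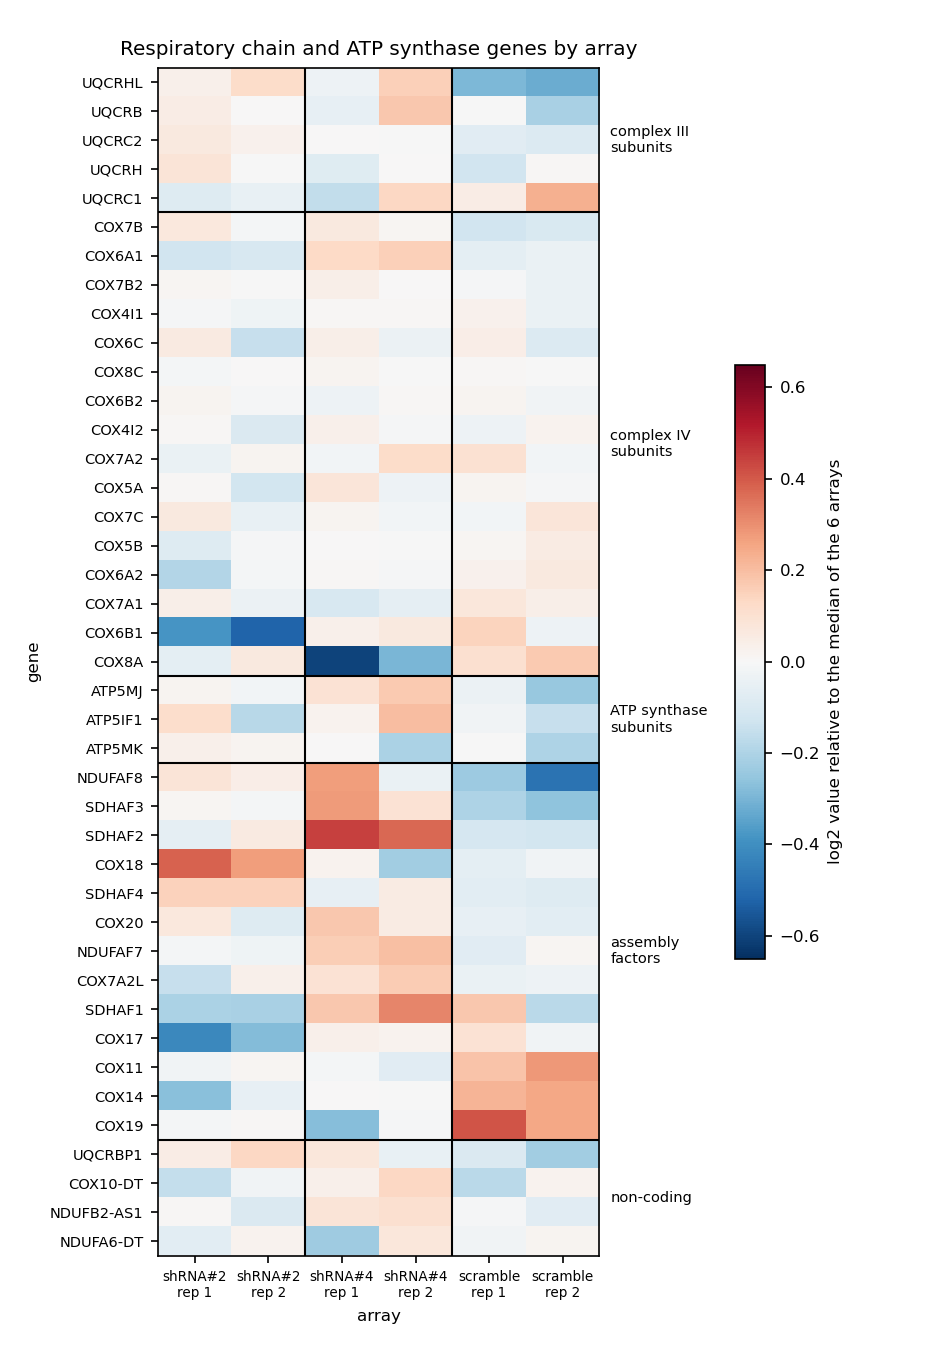
Log2 value of each of the 41 genes (rows, by class and then by change) on each of the 6 arrays (columns: shRNA#2, shRNA#4, scramble), relative to the gene's median over the arrays. COX19, COX14 and COX11 are lower on every hairpin array than on both scramble arrays, COX6B1 is low on the shRNA#2 arrays and COX8A on the shRNA#4 arrays, and most complex IV rows are close to white.

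Subunits of the complexes passed in 3 of 24 cases (12.5%), below the 25.4% of all genes, and assembly factors in 6 of 13 (46.2%). The 24 include the inhibitor ATP5IF1 and 6 tissue isoforms of complex IV that may be silent in these cells, of which 0 passed. Of the other 10 complex IV subunits, 2 passed (20%). The median absolute change was 0.066 over subunits, 0.20 over the 13 assembly factors and 0.091 over all genes. Without scramble replicate 2 the counts were 2 of 13 assembly factors and 1 of 24 subunits, and without shRNA#2 replicate 2 they were 5 and 1. The difference between the classes was not tested.

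**Figure D2:**
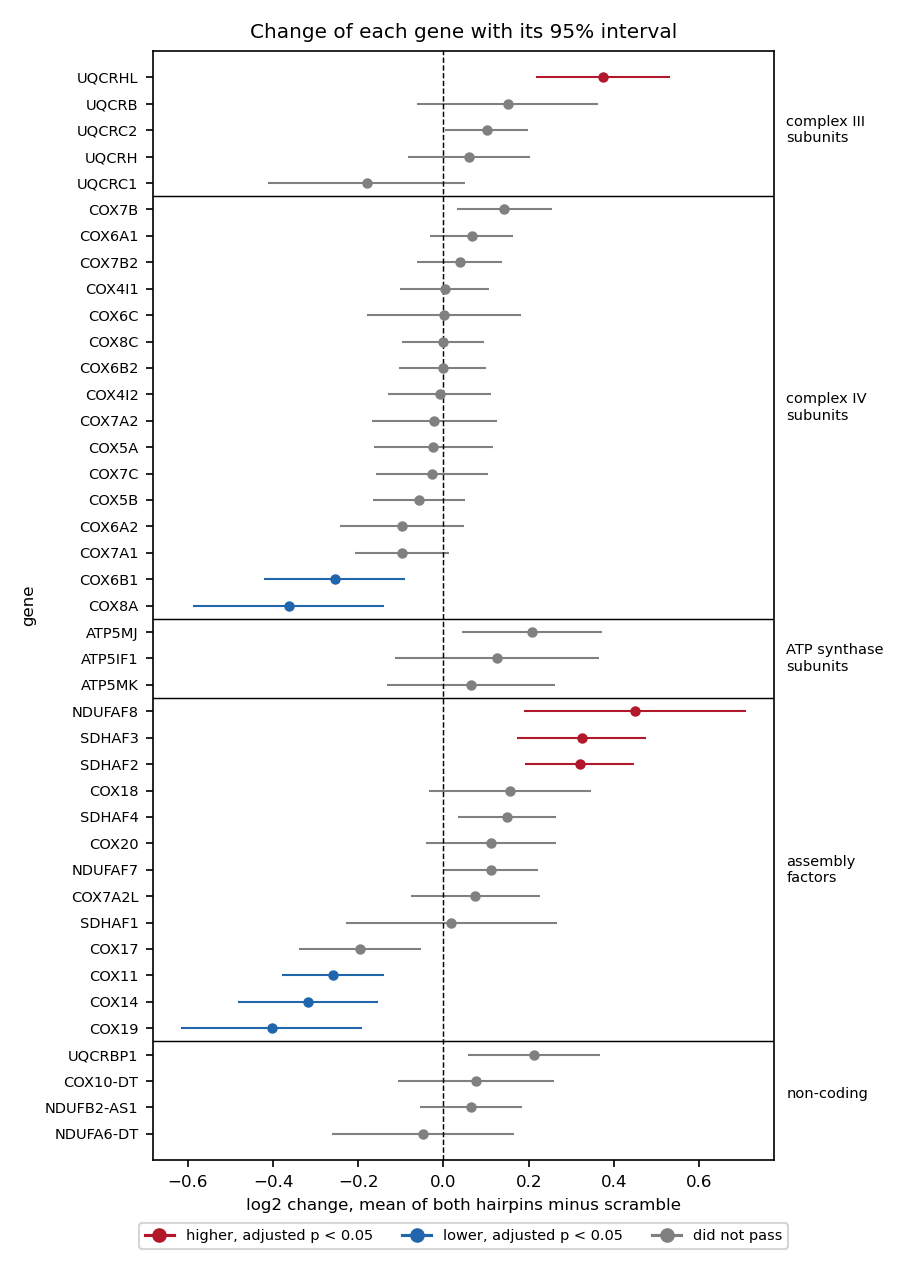
Log2 change of each gene (points) with its 95% interval (lines), mean of both hairpins minus scramble, by class. Complex IV subunits other than COX6B1 and COX8A have intervals that include 0, except COX7B, while assembly factors spread from -0.40 (COX19) to 0.45 (NDUFAF8).

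Complex III, which passes electrons from ubiquinol to cytochrome c, was measured through 5 genes, of which 1 rose and 0 fell. This is 20%, beside 25.4% of all genes (14.8% higher, 10.6% lower). The class median was 0.10. UQCRHL, a gene whose product is nearly identical to the hinge protein UQCRH, read 0.03 and 0.12 in shRNA#2 cells and -0.03 and 0.15 in shRNA#4 cells, against -0.29 and -0.32 in scramble cells. All 4 hairpin arrays stood above both scramble arrays. The change was 0.38 (SE 0.065, 1.30-fold, limma adjusted p = 0.0081) for the mean, 0.38 with shRNA#2 (adjusted p = 0.0157) and 0.37 with shRNA#4 (adjusted p = 0.0148). Without scramble replicate 2 the adjusted p of the mean was 0.0505. The shRNA#2 call was lost without either shRNA#2 or either scramble array, and the shRNA#4 call without either scramble array or shRNA#4 replicate 2, with adjusted p of up to 0.0865 and 0.0651. UQCRH itself read 0.08 and 0.00 in shRNA#2 cells and -0.08 and 0.00 in shRNA#4 cells, against -0.12 and 0.01 in scramble cells. Its groups overlapped, and its change of 0.06 (95% interval -0.08 to 0.20) did not pass. Probes may not separate the 2 transcripts, so the assignment of the change to UQCRHL is uncertain.

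The core proteins of complex III did not pass. UQCRC1 had a change of -0.18 (95% interval -0.41 to 0.05), with values from -0.16 to 0.14 in hairpin arrays, against 0.05 and 0.23 in scramble arrays. UQCRC2 had a change of 0.10 (0.0041 to 0.20, adjusted p = 0.126) and lay above both scramble arrays in all 4 hairpin arrays by a small margin. UQCRB, a small subunit at the ubiquinone side, had 0.15 (-0.06 to 0.36).

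Complex IV, the copper and heme enzyme that reduces oxygen, had 16 measured subunit genes, of which 2 fell and 0 rose. This is 12.5%, beside 25.4% of all genes (10.6% lower, 14.8% higher). The median change was -0.02 and the median absolute change 0.033. The scaffold subunit COX4I1 read -0.01 and -0.03 in shRNA#2 cells and 0.01 and 0.01 in shRNA#4 cells, against 0.03 and -0.04 in scramble cells. Its arrays overlapped throughout, with a change of 0.0027 (95% interval -0.10 to 0.11). For COX4I1, COX5A, COX5B, COX6C, COX7A2 and COX7C, the changes lay between -0.06 and 0.0027. Of their 95% intervals, that of COX6C reached furthest in both directions, to -0.18 and 0.18. COX7B, a subunit needed for assembly of the enzyme, had a change of 0.14 (0.03 to 0.25) that did not pass (adjusted p = 0.071).

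COX8A, the smallest membrane subunit, read -0.60 and -0.30 in shRNA#4 cells and -0.06 and 0.06 in shRNA#2 cells, against 0.11 and 0.17 in scramble cells. Both shRNA#4 arrays were far below the other 4, and the shRNA#2 arrays lay just under scramble. The change was -0.59 with shRNA#4 (SE 0.11, limma adjusted p = 0.00986) and held in each of the 6 fits that left out 1 array. With shRNA#2 it was -0.14 (95% interval -0.40 to 0.12, adjusted p = 0.457). The mean of both hairpins was -0.36 (SE 0.092, adjusted p = 0.0326), but its adjusted p was 0.0546 to 0.15 without scramble replicate 1, scramble replicate 2, shRNA#2 replicate 1 or shRNA#2 replicate 2.

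COX6B1, which faces the intermembrane space where cytochrome c docks, showed the opposite split. It read -0.38 and -0.52 in shRNA#2 cells and 0.03 and 0.07 in shRNA#4 cells, against 0.14 and -0.03 in scramble cells. Both shRNA#2 arrays were the lowest, and the shRNA#4 arrays lay between the scramble arrays. The change was -0.50 with shRNA#2 (SE 0.078, 1.42-fold lower, limma adjusted p = 0.00708), again in each of the 6 fits that left out 1 array, and -0.0064 with shRNA#4 (95% interval -0.20 to 0.18). For the mean it was -0.26 (adjusted p = 0.0385), and the adjusted p was 0.0781 to 0.212 without scramble replicate 1, shRNA#2 replicate 2, shRNA#4 replicate 1 or shRNA#4 replicate 2. For both subunits the mean of both hairpins thus averages a hairpin that passed and a hairpin that did not.

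COX6A1, a subunit near the docking face of the enzyme, read -0.13 and -0.10 in shRNA#2 cells and 0.13 and 0.16 in shRNA#4 cells, against -0.06 and -0.04 in scramble cells. Its change with shRNA#4 was 0.19 (SE 0.046, adjusted p = 0.0263), which was lost without any 1 of the 6 arrays (adjusted p 0.0543 to 0.109). Of 15 alternative fits, those without single arrays included, 8 kept the shRNA#4 call of COX6A1. The gene had 2 probe sets that disagreed with shRNA#2, at 0.10 and -0.23, and gave 0.15 and 0.24 with shRNA#4. Their values between the hairpins were -0.05 and -0.46, so the gene's value is an average of unlike probe sets.

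Complex IV swaps some subunits for tissue isoforms. The 6 measured were COX4I2, an oxygen-regulated form known from lung, COX6A2 and COX7A1 of heart and muscle, and COX6B2, COX7B2 and COX8C of testis. With the mean of both hairpins the limma test passed 0 of the 6, beside 25.4% of all genes (14.8% higher, 10.6% lower). At an unadjusted p under 0.05 there were 0, beside 5318 of all 14884 genes. Their changes lay between -0.10 and 0.04, with a median absolute change of 0.024, beside 0.091 for all genes. With shRNA#4, COX7A1 had -0.14 (adjusted p = 0.111), and with shRNA#2, COX6A2 had -0.15 (adjusted p = 0.203). For the mean, against their partners, COX8C had -0.0011 where COX8A had -0.36, COX6B2 had -0.0016 where COX6B1 had -0.26, COX4I2 had -0.0091 where COX4I1 had 0.0027, COX6A2 had -0.10 where COX6A1 had 0.07, and COX7A1 had -0.10 where COX7A2 had -0.02. Without a level for each probe set, an isoform that is silent in these cells and one that did not move look alike.

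ATP synthase was represented by 3 small proteins, with a median change of 0.13 for the mean of both hairpins. The limma test passed 0 of them, beside 25.4% of all genes (14.8% higher, 10.6% lower). At an unadjusted p under 0.05 there was 1, beside 5318 of all 14884 genes. Counts over 3 genes cannot set the class apart from all genes. ATP5MJ, a small membrane subunit, read 0.02 and -0.02 in shRNA#2 cells and 0.09 and 0.17 in shRNA#4 cells, against -0.04 and -0.25 in scramble cells. The hairpin arrays stood above both scramble arrays, with the 2 scramble arrays well apart. Its change of 0.27 with shRNA#4 passed narrowly (SE 0.078, limma adjusted p = 0.0476). The call was kept in 6 of 15 alternative fits, those without single arrays included. The adjusted p was 0.0826 to 0.192 without scramble replicate 2, shRNA#2 replicate 1, shRNA#2 replicate 2, shRNA#4 replicate 1 or shRNA#4 replicate 2, and 0.0506 with the replicate block. ATP5IF1, the inhibitor that stops ATP synthase from running backwards, had a change of 0.13 (95% interval -0.11 to 0.37), and ATP5MK, a small subunit that joins synthase dimers, 0.07 (-0.13 to 0.26). The catalytic and stator subunits were not analysed here.

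Among the members, the assembly factors of complexes I and II that passed a comparison with scramble were all higher. Of all genes, 14.8% were higher and 10.6% lower for the mean of both hairpins. With shRNA#2 these shares were 12.1% and 9.54%, and with shRNA#4 15.7% and 10.4%. SDHAF2, which helps attach flavin to the catalytic subunit of succinate dehydrogenase, read 0.45 and 0.37 in shRNA#4 cells and -0.06 and 0.06 in shRNA#2 cells, against -0.11 and -0.12 in scramble cells. The shRNA#4 arrays were far above the rest and the shRNA#2 arrays slightly above scramble. The change was 0.52 with shRNA#4 (SE 0.060, 1.44-fold, limma adjusted p = 0.002) and 0.32 for the mean (SE 0.052, adjusted p = 0.00674), both kept in each of the 6 fits that left out 1 array, and 0.12 with shRNA#2 (95% interval -0.03 to 0.26).

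SDHAF3, which works on the iron-sulfur subunit of complex II, read 0.01 and -0.01 in shRNA#2 cells and 0.28 and 0.09 in shRNA#4 cells, against -0.20 and -0.26 in scramble cells. All 4 hairpin arrays lay above scramble. The mean change was 0.32 (SE 0.062, adjusted p = 0.012, and 0.0729 without scramble replicate 2) and that with shRNA#4 was 0.42 (adjusted p = 0.00825, kept in each of the 6 fits), while shRNA#2 gave 0.23 (adjusted p = 0.07, and 0.0419 with the replicate block). SDHAF4, which stabilises the flavin-bearing subunit before it is joined, read 0.15 and 0.15 in shRNA#2 cells and -0.05 and 0.05 in shRNA#4 cells, against -0.07 and -0.08 in scramble cells. Its change of 0.22 with shRNA#2 passed (adjusted p = 0.0341), though the adjusted p was 0.107 to 0.137 without either shRNA#2 array or either scramble array. SDHAF1, another factor for the iron-sulfur subunit, had values of -0.20 and -0.21 in shRNA#2 cells and 0.17 and 0.32 in shRNA#4 cells, against 0.18 and -0.17 in scramble cells. Its 2 scramble arrays lay far apart and it passed in no comparison, with a mean change of 0.02 (95% interval -0.23 to 0.27).

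For complex I, NDUFAF8, which partners the factor NDUFAF5 in early assembly, read 0.08 and 0.04 in shRNA#2 cells and 0.27 and -0.04 in shRNA#4 cells, against -0.24 and -0.48 in scramble cells. The hairpin arrays were all above scramble, and both the shRNA#4 and the scramble arrays were widely spread. Its mean change was 0.45 (SE 0.11, 1.37-fold, adjusted p = 0.0262), with an adjusted p of 0.0629 to 0.145 without scramble replicate 2, shRNA#2 replicate 1 or shRNA#2 replicate 2. With shRNA#4 it was 0.47 (adjusted p = 0.0354, and up to 0.146 without scramble replicate 2, shRNA#4 replicate 1 or either shRNA#2 array, and 0.0617 after quantile normalization), and with shRNA#2 0.42 (adjusted p = 0.0582, and 0.0149 with the replicate block). The shRNA#4 calls of NDUFAF8 and of NDUFAF7, described next, were each kept in 9 of 15 alternative fits, those without single arrays included. NDUFAF7, which methylates a core subunit of complex I, read -0.01 and -0.03 in shRNA#2 cells and 0.16 and 0.20 in shRNA#4 cells, against -0.07 and 0.01 in scramble cells. Its change of 0.21 with shRNA#4 passed (adjusted p = 0.03), and the adjusted p was 0.0595 to 0.135 without any single array other than scramble replicate 2.

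Of the 6 complex IV assembly factors among the members, 3 fell and 0 rose for the mean of both hairpins (beside 10.6% of all genes lower and 14.8% higher). COX19, which works with COX11 in copper supply within the intermembrane space, read -0.01 and 0.01 in shRNA#2 cells and -0.28 and -0.01 in shRNA#4 cells, against 0.41 and 0.25 in scramble cells. All 4 hairpin arrays were below both scramble arrays. The mean change was -0.40 (SE 0.087, 1.32-fold lower, limma adjusted p = 0.0187), and the adjusted p was 0.0508 to 0.122 without scramble replicate 1, shRNA#2 replicate 1 or shRNA#2 replicate 2. With shRNA#4 it was -0.47 (adjusted p = 0.0173, and up to 0.0863 without scramble replicate 1 or shRNA#4 replicate 1) and with shRNA#2 -0.33 (adjusted p = 0.0663). COX11, which delivers copper to the site beside heme in the COX1 subunit, read -0.02 and 0.01 in shRNA#2 cells and -0.01 and -0.07 in shRNA#4 cells, against 0.19 and 0.28 in scramble cells. It was the only member that fell with the mean (-0.26, SE 0.049, adjusted p = 0.0114), with shRNA#2 (-0.24, adjusted p = 0.0296) and with shRNA#4 (-0.28, adjusted p = 0.0147). Its adjusted p for the mean was 0.0691 without scramble replicate 2. With shRNA#2 it reached 0.142 without scramble replicate 2 or either shRNA#2 array, and with shRNA#4 0.0752 without scramble replicate 2 or shRNA#4 replicate 2.

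COX14, which holds newly made COX1 during early assembly, read -0.27 and -0.05 in shRNA#2 cells and 0.00 and 0.00 in shRNA#4 cells, against 0.22 and 0.25 in scramble cells. The hairpin arrays were again all below scramble. The mean change was -0.32 (SE 0.068, adjusted p = 0.0177, and 0.0767 and 0.0921 without scramble replicate 1 or 2). It was -0.40 with shRNA#2 (adjusted p = 0.0161, and up to 0.0691 without either scramble array or shRNA#2 replicate 1) and -0.24 with shRNA#4 (adjusted p = 0.0767). COX17, the copper chaperone that hands copper on to COX11 and the SCO proteins, read -0.42 and -0.28 in shRNA#2 cells and 0.03 and 0.02 in shRNA#4 cells, against 0.09 and -0.02 in scramble cells. Only the shRNA#2 arrays stood apart, with a change of -0.38 (SE 0.068, adjusted p = 0.0111, and 0.0567 and 0.0623 without scramble replicate 1 or shRNA#2 replicate 1), and the shRNA#4 change was -0.0082 (95% interval -0.17 to 0.16).

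COX18, which moves a tail of the COX2 subunit across the membrane, read 0.38 and 0.27 in shRNA#2 cells and 0.02 and -0.22 in shRNA#4 cells, against -0.06 and -0.02 in scramble cells. It rose with shRNA#2 by 0.37 (SE 0.090, adjusted p = 0.0334), with an adjusted p of 0.0767 to 0.161 without either shRNA#2 array or either scramble array. COX20, a chaperone of COX2, had a mean change of 0.11 (95% interval -0.04 to 0.26). COX7A2L, which joins complexes III and IV in supercomplexes, had 0.08 (-0.08 to 0.23).

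Assembly factors with other symbols were added from a list, and the factors were then divided by the complex they serve after their values had been seen. In all, 50 of 58 factors were measured, of which 14 rose and 7 fell for the mean of both hairpins (42%, beside 25.4% of all genes), with a median change of 0.10. The 7 that fell were all complex IV factors. Of the 26 factors of complexes I, II and III and ATP synthase, 6 rose and 1 fell with shRNA#2, and 9 rose and 1 fell with shRNA#4. Of the 22 factors of complex IV, 4 rose and 6 fell with shRNA#2, and 5 rose and 5 fell with shRNA#4. Of all genes, 12.1% rose and 9.54% fell with shRNA#2, and 15.7% and 10.4% with shRNA#4. For the mean of both hairpins, 9 of the 26 rose and 0 fell, and 5 of the 22 rose and 7 fell (beside 14.8% of all genes higher and 10.6% lower). The count of complex IV factors that fell was 2 without scramble replicate 1, 2 without scramble replicate 2, 3 without shRNA#2 replicate 1, 4 without shRNA#2 replicate 2, 5 without shRNA#4 replicate 1 and 6 without shRNA#4 replicate 2, while the count of risers in the other complexes stayed between 7 and 9.

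**Figure D3:**
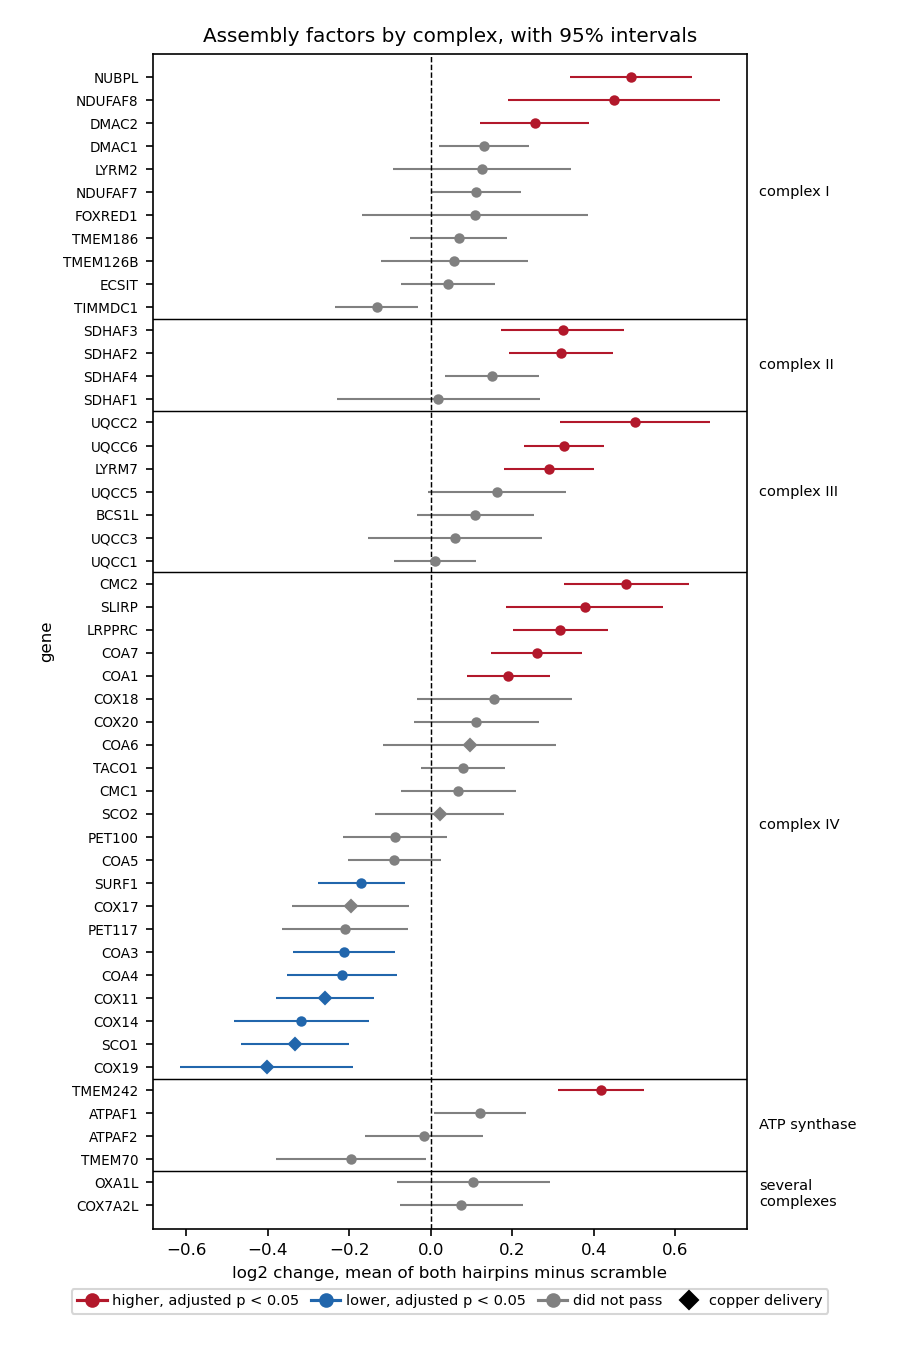
Log2 change of the 50 measured assembly factors (points) with 95% intervals (lines), mean of both hairpins minus scramble, by the complex they serve. The 9 red points outside complex IV and the several-complex factors face 0 blue ones, and in complex IV 5 factors are red and 7 blue, among them the copper-delivery factors COX19, SCO1 and COX11 (diamonds).

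Among the factors that rose, NUBPL, which supplies iron-sulfur clusters to complex I, read 0.13 and 0.15 in shRNA#2 cells and 0.06 and -0.06 in shRNA#4 cells, against -0.35 and -0.49 in scramble cells. Its change was 0.49 (SE 0.061, limma adjusted p = 0.00257), and it rose with each hairpin. UQCC2, a factor for cytochrome b of complex III, read 0.57 and 0.56 in shRNA#2 cells and -0.13 and 0.13 in shRNA#4 cells, against -0.24 and -0.20 in scramble cells. Its mean change of 0.50 (adjusted p = 0.00502) came with 0.78 for shRNA#2 and 0.22 for shRNA#4, of which the second did not pass (adjusted p = 0.13). TMEM242, a factor of ATP synthase, read -0.03 and 0.03 in shRNA#2 cells and 0.40 and 0.34 in shRNA#4 cells, against -0.23 and -0.23 in scramble cells, a mean change of 0.42 (adjusted p = 0.00143). These 3 calls were kept in each of the 6 fits that left out 1 array. Named after their values were seen, UQCC6 (0.33) and LYRM7 (0.29) of complex III and DMAC2 (0.25) of complex I complete the risers outside complex IV beside NDUFAF8, SDHAF2 and SDHAF3. Of these, UQCC6 rose with shRNA#2 (0.18, adjusted p = 0.0389) and with shRNA#4 (0.47, adjusted p = 0.0012). LYRM7 rose with shRNA#2 (0.58, adjusted p = 0.00143), had 0.0040 with shRNA#4 (adjusted p = 0.976) and differed between the hairpins by 0.57 (adjusted p = 0.00286). The call of DMAC2 was lost without scramble replicate 1, shRNA#2 replicate 1 or shRNA#4 replicate 2 (adjusted p 0.0513 to 0.121). With single hairpins there were exceptions in the other direction, also named after their values were seen: TMEM70 of ATP synthase fell with shRNA#2 (-0.37, adjusted p = 0.0299) and TIMMDC1 of complex I with shRNA#4 (-0.21, adjusted p = 0.0242).

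Within complex IV, SCO1, a metallochaperone that passes copper to COX2, read -0.08 and 0.06 in shRNA#2 cells and -0.06 and -0.08 in shRNA#4 cells, against 0.26 and 0.32 in scramble cells. All hairpin arrays were below scramble, with a change of -0.33 (SE 0.055, limma adjusted p = 0.00683) that was kept in each of the 6 fits that left out 1 array. Of the 6 factors of copper delivery, a list made after the values were seen, COX19, SCO1 and COX11 fell, COX17 had -0.20 (adjusted p = 0.0574), SCO2, the partner of SCO1, had 0.02 (95% interval -0.14 to 0.18) and COA6 had 0.10 (-0.12 to 0.31). COA4, a small intermembrane-space protein, had -0.22 (adjusted p = 0.0332), COA3, which holds new COX1 together with COX14, had -0.21 (adjusted p = 0.0284), and SURF1, a factor of early assembly, had -0.17 (adjusted p = 0.0339). These 3 were named after their values were seen, and each lost its call in 5 or 6 of the 6 fits that left out 1 array, with adjusted p of up to 0.147, 0.123 and 0.182.

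The 5 complex IV factors that rose were CMC2 (0.48, adjusted p = 0.00304), SLIRP (0.38, adjusted p = 0.0168), LRPPRC (0.32, adjusted p = 0.00497), COA7 (0.26, adjusted p = 0.00927) and COA1 (0.19, adjusted p = 0.02), the last 3 named after their values were seen. COA7 had 0.09 with shRNA#2 (adjusted p = 0.343) and 0.43 with shRNA#4 (adjusted p = 0.00251), a difference of -0.35 (adjusted p = 0.0107). LRPPRC and SLIRP bind each other and keep mitochondrial messenger RNAs stable, and they were listed with complex IV because loss of LRPPRC is known mainly for a lack of that enzyme. LRPPRC read 0.06 and 0.12 in shRNA#2 cells and 0.01 and -0.01 in shRNA#4 cells, against -0.32 and -0.23 in scramble cells. The call of SLIRP was lost without scramble replicate 2 (adjusted p = 0.1), that of COA7 without scramble replicate 1 (adjusted p = 0.0661), and that of COA1 without either scramble array, shRNA#2 replicate 1 or shRNA#4 replicate 2 (adjusted p 0.0507 to 0.105).

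Each hairpin was also set against scramble alone. Both comparisons use the same 2 scramble arrays, so their values are given side by side. With shRNA#2, 3 of 41 members rose and 4 fell (17.1%, beside 21.6% of all genes, 12.1% higher and 9.54% lower). With shRNA#4, 7 rose and 3 fell (24.4%, beside 26.1% of all genes, 15.7% higher and 10.4% lower). UQCRHL rose and COX11 fell with each. The shRNA#2 count was 1 without shRNA#2 replicate 1, 2 without scramble replicate 1 and 3 without scramble replicate 2 or shRNA#2 replicate 2. The shRNA#4 count was 5 without scramble replicate 2, shRNA#4 replicate 1 or shRNA#4 replicate 2.

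**Figure D4:**
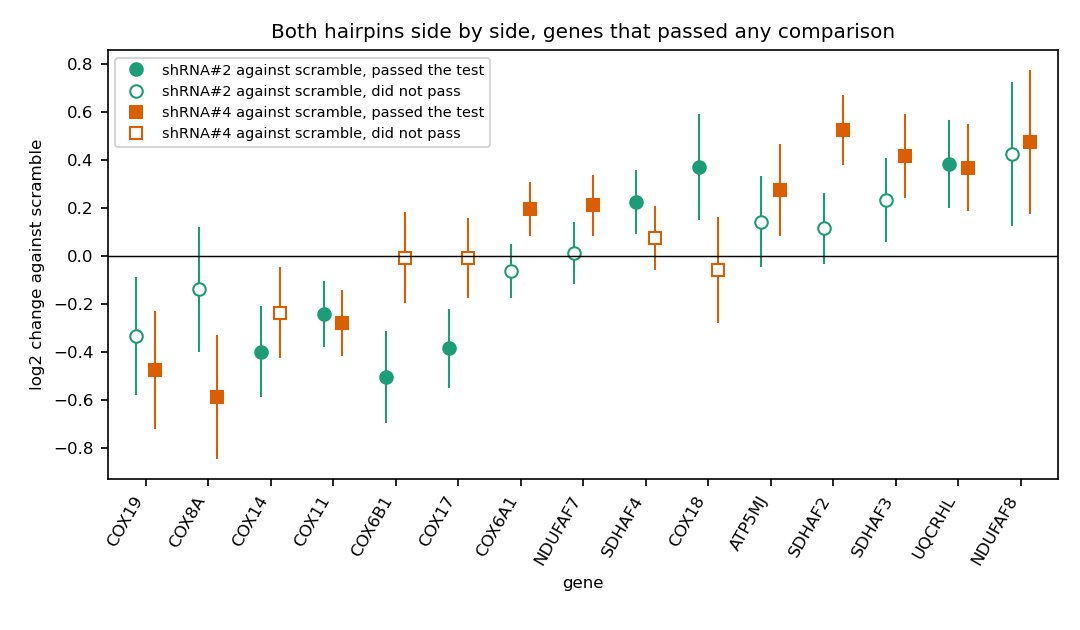
Log2 change against scramble with 95% intervals for the 15 genes that passed any of the 4 comparisons, shRNA#2 (circles) beside shRNA#4 (squares), filled where the test was passed. The pairs for COX11 and UQCRHL lie together, while COX6B1 and COX17 are filled and low only for shRNA#2, COX8A is filled and low only for shRNA#4, and SDHAF2 is filled and high only for shRNA#4.

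The direct comparison of the hairpins does not use the scramble arrays for its difference. Of the members, 2 were higher and 4 lower in shRNA#2 than in shRNA#4 cells (14.6%, beside 15.3% of all genes, 6.64% higher and 8.63% lower). COX18 (0.43, limma adjusted p = 0.0272) and COX8A (0.45, adjusted p = 0.0392) were higher with shRNA#2. COX6B1 (-0.50, adjusted p = 0.0114), SDHAF2 (-0.41, adjusted p = 0.00948), COX17 (-0.38, adjusted p = 0.017) and COX6A1 (-0.26, adjusted p = 0.0172, an average of unlike probe sets) were lower. Each of these 6 calls was lost in 1 to 5 of the 6 fits that left out 1 array. The count was 1 without shRNA#2 replicate 1, 2 without shRNA#2 replicate 2, 3 without shRNA#4 replicate 1 and 2 without shRNA#4 replicate 2. For COX11 the difference was 0.04 (95% interval -0.10 to 0.18) and for UQCRHL 0.02 (-0.17 to 0.20).

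The 4 non-coding members carry the symbols of respiratory genes without encoding subunits. The limma test for the mean passed 0 of them, beside 25.4% of all genes (14.8% higher, 10.6% lower). At an unadjusted p under 0.05 there was 1, beside 5318 of all 14884 genes. Counts over 4 genes cannot set them apart from all genes. UQCRBP1, a pseudogene of UQCRB, had a mean change of 0.21 (95% interval 0.06 to 0.37, adjusted p = 0.057) and may share probe sequence with UQCRB. The divergent transcripts COX10-DT and NDUFA6-DT had 0.08 (-0.11 to 0.26) and -0.05 (-0.26 to 0.17), and the antisense transcript NDUFB2-AS1 had 0.07 (-0.06 to 0.19).

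Of the 34 members with a promoter in the table, 8 (23.5%) started within 1000 bases of a gene on the opposite strand, close to the 24.3% of measured genes. For 4 of them the neighbour was measured. PDCD11, a ribosome biogenesis factor that starts beside ATP5MK, rose by 0.53 (adjusted p = 0.00383) where ATP5MK had 0.07. EMC8, a part of the membrane protein insertion complex beside COX4I1, rose by 0.43 (adjusted p = 0.00563) where COX4I1 had 0.0027. LRRC41 beside UQCRH had 0.03 (adjusted p = 0.827), and TEPSIN beside NDUFAF8 had -0.09 (adjusted p = 0.518).

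Lists of neighbouring mitochondrial functions showed where the respiratory genes stood. Of 8 measured genes of cytochrome c and coenzyme Q synthesis (16 listed), 1 rose and 0 fell with the mean of both hairpins (12.5%, beside 25.4% of all genes). It was COQ10B, a coenzyme Q binding protein, at 0.21 (adjusted p = 0.0457). With shRNA#2, 0 rose and 2 fell (25%, beside 21.6% of all genes), and with shRNA#4, 2 rose and 2 fell (50%, beside 26.1%). Between the hairpins 4 differed (50%, beside 15.3%). HCCS, which attaches heme to cytochrome c, read -0.34 and -0.53 in shRNA#2 cells and 0.74 and 0.45 in shRNA#4 cells, against 0.07 and -0.07 in scramble cells. It fell with shRNA#2 (-0.43, adjusted p = 0.0431), rose with shRNA#4 (0.59, adjusted p = 0.0123) and differed between the hairpins by -1.03 (adjusted p = 0.00451). The tricarboxylic acid cycle list had 10 measured genes (18 listed), among them PDHA1, PDHB and DLAT of the pyruvate dehydrogenase complex. With the mean of both hairpins 0 rose and 1 fell (10%), OGDH of the oxoglutarate dehydrogenase complex (-0.28, adjusted p = 0.0248). With shRNA#2, 0 rose and 2 fell (20%), and with shRNA#4, 3 rose and 1 fell (40%). Between the hairpins 3 differed (30%). DLAT of the pyruvate dehydrogenase complex fell with shRNA#2 (-0.35, adjusted p = 0.00486) and rose with shRNA#4 (0.43, adjusted p = 0.00201), as HCCS did. Neither HCCS nor DLAT passed with the mean of both hairpins, and fits without single arrays are not given here for them.

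**Figure D5:**
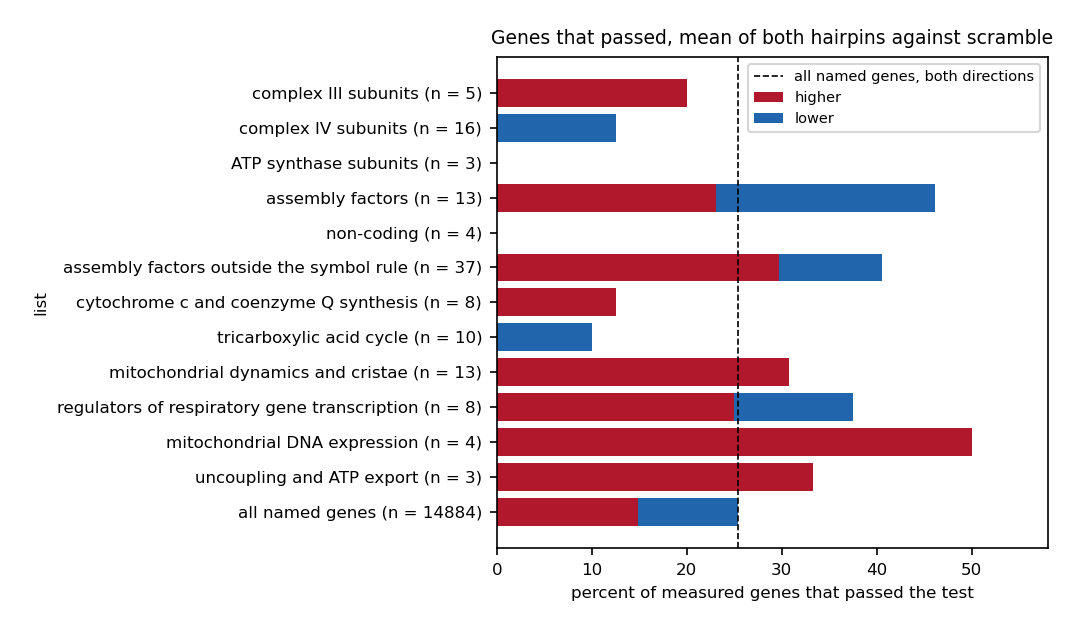
Percent of the measured genes of each list that passed with both hairpins averaged, higher (red) and lower (blue), with all named genes as the dashed line at 25.4%. Subunits of complexes III and IV lie to the left of the line and both lists of assembly factors to the right of it.

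Of 8 measured regulators of respiratory gene transcription (14 listed), 2 rose and 1 fell with the mean of both hairpins (37.5%, beside 25.4% of all genes, 14.8% higher and 10.6% lower). MYC read -0.05 and 0.18 in shRNA#2 cells and 0.05 and 0.11 in shRNA#4 cells, against -0.65 and -0.82 in scramble cells, a rise of 0.81 (SE 0.081, adjusted p = 0.00133). NRF1, the factor whose motif was searched above, rose by 0.20 (adjusted p = 0.0362), and PPARA, a regulator of fatty acid oxidation, fell by 0.55 (adjusted p = 0.00289). The NRF1 call was lost in 5 of the 6 fits that left out 1 array, with an adjusted p of up to 0.183. For mitochondrial DNA expression, 2 of 4 measured genes (13 listed) rose and 0 fell (50%), the helicase TWNK (0.57, adjusted p = 0.00134) and MTERF3 (0.38, adjusted p = 0.00445). Of 13 measured genes of mitochondrial dynamics and cristae (15 listed), 4 rose and 0 fell (30.8%). They were APOO, a part of the cristae-organising MICOS complex (1.10, adjusted p = 0.000914), the fission factor DNM1L (0.49, adjusted p = 0.00802), the fusion factor OPA1 (0.39, adjusted p = 0.0072) and the prohibitin PHB1 (0.29, adjusted p = 0.00927). Of 3 measured genes of uncoupling and ATP export (12 listed), 1 rose and 0 fell (33.3%), the outer membrane channel VDAC2 (0.26, adjusted p = 0.0329). Of these list genes, OGDH was called in 1, COQ10B in 1 and VDAC2 in 2 of the 6 fits that left out 1 array, with adjusted p of up to 0.118, 0.21 and 0.19. The calls of DNM1L and PHB1 were lost without scramble replicate 1 (adjusted p = 0.058 and 0.0568).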

How the data were processed

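The deposited log2 values came from 1-channel arrays, and the authors had subtracted from each probe set its own median across the arrays, as the values themselves show. The logarithm's base was assumed to be 2. Probe summarisation, background correction and normalization are not stated by the labels. Per the labels' protocols, each array took 100 ng of total RNA. Centring removes levels, so signal over background was not available, no filter on dim probe sets could be run, and the number of arrays limits the precision. Of 48144 probe sets, 16098 carried 1 symbol in the platform annotation, 32046 carried none and 0 carried several. Probe sets of a gene were averaged, giving 14884 genes.

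Groups follow the sample titles. A single limma 3.58.1 fit (R 4.3.3, eBayes, 3 residual and 3.09 prior degrees of freedom) covered the 3 groups, with p-values adjusted by Benjamini-Hochberg across genes. The fit was also run on simulated data with independent noise and the same rise on all hairpin arrays. That setting is simpler than these data and does not cover changes that differ between the hairpins. Each hairpin and their mean were compared with scramble, and shRNA#2 with shRNA#4. Same-numbered arrays deviated from their group means together (Pearson's r over genes of 0.20, 0.18 and 0.12 for the 3 pairs of groups). The main fit, which gave every call unless a block is named, ignored this. The numbers were taken as pairs only in the replicate block alternative, a pairing that comes from these values and not from the labels. The members and lists were chosen with earlier results of these data known. The text names members that passed any comparison, the 3 largest changes per class, all complex II factors, paired isoforms and up to 6 passing genes per list. Alternatives were quantile normalization, array centring, the most variable probe set, protein-coding genes, all probe sets, robust and trended priors, array weights, a replicate block, fits of only the compared arrays, a threshold of 0.01 and omission of single arrays. Promoters came from RefSeq (GRCh38.p14). Python 3.11.15 with pandas 2.3.3 and matplotlib 3.10.9 drew the figures.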

Additional observations from a re-analysis of the deposited data

Results flagged for a closer look

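For 6 members the effect of the hairpins against scramble differed between shRNA#2 and shRNA#4, by the limma test of the difference itself (adjusted p under 0.05 over all genes). COX6B1 was lower with shRNA#2, by -0.50, and SDHAF2 by -0.41, COX17 by -0.38 and COX6A1 by -0.26. The COX6A1 value averages 2 unlike probe sets, at -0.05 (limma adjusted p = 0.582) and -0.46 (adjusted p = 0.0133). COX8A was higher with shRNA#2, by 0.45, and COX18 by 0.43. Without single arrays the adjusted p of these differences reached 0.0633 for COX6B1, 0.0584 for SDHAF2, 0.0906 for COX17, 0.101 for COX6A1, 0.175 for COX8A and 0.139 for COX18.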

How the results depend on the processing

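Under quantile normalization, centring of each array, the other rules for probe sets, protein-coding genes, all probe sets, both other priors, array weights and only the arrays compared, each count of members that passed stayed within 1.5 times its value. At an adjusted p under 0.01 the counts were 2 (mean of both hairpins), 1 (shRNA#2), 3 (shRNA#4) and 1 (between hairpins), 1 complex IV assembly factor still counted as fallen, and 1 assembly factor and 1 subunit among the members passed. Leaving out each array gave 3 to 8 members for the mean, 1 to 10 for shRNA#2, 5 to 7 for shRNA#4 and 1 to 6 between the hairpins, 2 to 6 complex IV assembly factors that fell, and 2 to 6 assembly factors and 1 to 2 subunits among the members that passed. The median change of the members, 0.0385, was 0.0188 with the probe set of largest standard deviation and also with protein-coding genes, and 0.0205 to 0.0558 without single arrays. The median over complex IV subunits ran from -0.0361 to 0.0022 without single arrays. ATP5MK reversed to -0.0332 without scramble replicate 2, and ran up to 0.164 without scramble replicate 1. Leaving out an array leaves its group with 1 array, assumed to vary like the others, and the cause of the other shifts was not tested. The counts of assembly factors by complex, and of members by class, were added after seeing the data. For named members, 534 of the alternative values kept direction and side of the threshold, 118 lost their call, 4 gained one and 1 reversed. A replicate block gave 9, 9, 9 and 6 members for the mean, shRNA#2, shRNA#4 and between the hairpins. With shRNA#2 it added NDUFAF8 and SDHAF3, with shRNA#4 it removed ATP5MJ, and it changed no other call of a member. Medians for complex I and II subunits could not be given, since 0 were measured. The centred values limit what is known of weakly expressed genes.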
